A study of Mus musculus with 7 samples.

Results

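Plasma cells make immunoglobulin A (IgA), and the mammary epithelium carries it into milk. Transcripts of 10 genes of this route were followed in mouse mammary gland: *Pigr*, *Igj* (now *Jchain*), *Igha*, *Mzb1*, *Tnfrsf17*, *Prdm1*, *Irf4*, *Ccr10*, *Sdc1* and *Fcgrt*. They were taken by name from a count table of 37310 genes. For 9 of the 10 a row was found, *Mzb1* under its older name 2010001M09Rik, and all 9 passed the filter on low counts. *Igha*, the constant region of the IgA heavy chain, had no row of its name and was not analysed here. Whether a constant region row under another name holds it was not settled. RNA came from whole glands of C57BL/6 females at lactation day 1 (L1), 3 WT and 4 *Tardbp* KO libraries, and addresses what loss of TDP-43, the RNA-binding protein that *Tardbp* encodes, does to the lactating gland. WT mice were *Tardbp* wt/wt and KO mice *Tardbp* fl/fl, and both carried the WAP-Cre transgene. In the KO, Cre driven by the whey acidic protein promoter removes exons 2 and 3 of *Tardbp*. That promoter is active in luminal epithelial cells from mid-pregnancy to lactation, so it targets the cells that make the IgA receptor and not the plasma cells. Ages were not given in the sources used here, and each library came from its own mouse as far as the number of mice shows, which equals the number of libraries.

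Plasma cells form from B cells, shut down B cell identity genes such as *Pax5* and devote themselves to antibody secretion. They join IgA monomers with the J chain, the product of *Igj*, and the polymeric Ig receptor, the product of *Pigr*, takes up only such joined antibody on the basal side of the epithelium. The receptor crosses the cell by transcytosis and is cut at the milk side, which releases secretory IgA. The neonatal Fc receptor, whose heavy chain is *Fcgrt*, moves IgG instead.

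The upstream sequences of the IgA receptor and of the J chain are shown because these genes sit at both ends of the route, the receptor in epithelium and the joining chain in plasma cells. Both are the bases just before the annotated start, 5′ to 3′ on the gene's strand, from RefSeq on GRCm38.p6. Capitals mark a CACGTG E-box, the letters that USF factors recognise.
*Pigr*, chr1:130826434-130826683, plus strand: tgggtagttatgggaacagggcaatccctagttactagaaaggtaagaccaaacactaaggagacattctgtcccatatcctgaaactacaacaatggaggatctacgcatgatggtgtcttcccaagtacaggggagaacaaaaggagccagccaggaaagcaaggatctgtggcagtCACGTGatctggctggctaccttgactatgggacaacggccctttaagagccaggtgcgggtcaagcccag
*Igj*, chr5:88527898-88528147, minus strand: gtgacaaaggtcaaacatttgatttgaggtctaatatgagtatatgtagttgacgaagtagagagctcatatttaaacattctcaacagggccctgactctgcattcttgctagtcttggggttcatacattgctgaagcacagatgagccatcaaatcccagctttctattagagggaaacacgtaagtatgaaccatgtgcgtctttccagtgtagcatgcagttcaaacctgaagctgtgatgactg
The E-box of *Pigr* lay at bases -71 to -66 from the start, and 6.02% of 32851 mouse promoters of this length held one. The *Igj* window held none of the 6 motifs searched on both strands, which were the E-box, an IRF element (GAAANNGAAA, in 2.98% of promoters), the octamer ATTTGCAT (1.6%), a STAT element (TTCNNNGAA, 7.02%), TATAAA (12.4%) and a kappa-B consensus (7.25%). RefSeq entries were found for 7 members. *Tnfrsf17* had an IRF element and TATAAA, *Irf4* had TATAAA, *Sdc1* had a kappa-B match, and *Prdm1* and *Fcgrt* had no match. These matches describe letters in a window and say nothing of binding. On NCBIM37, the build of the counts, *Pigr* spans chr1:132723261-132748826 and *Igj* chr5:88949537-88956916, and no exon of the 9 members overlaps an exon of another gene.

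Library totals lay between 36007737 and 42811337 counts. Milk protein genes took 26.3 to 34.0% of the counts in WT and 12.7 to 21.8% in KO, and the TMM factors that scale each library were 0.781 to 0.909 in WT and 1.00 to 1.23 in KO. Levels are CPM, counts relative to library size after this scaling, in the order of the replicate numbers. *Tardbp* had 223, 178 and 159 CPM in WT and 214, 176, 154 and 208 CPM in KO (log2 fold change 0.01, SE 0.182, adjusted p = 0.982, edgeR quasi-likelihood test). Exons 2 and 3 hold 5.56% of the gene's annotated exon bases and 24.3% of these bases are shared with *Masp2*, so the count of the whole gene does not check the deletion, and KO below means the libraries so labelled. Lane and genotype were nearly confounded, since lane 4 alone held both (WT 2, KO 3 and KO 4). KO 1 and KO 3 stood apart in B and T cell genes, and KO 4 mainly in B cell genes. The summed CPM of 8 B cell markers was 2.86, 2.92 and 3.42 in WT and 185, 5.25, 263 and 56.0 in KO, with *Cd79a*, a signalling chain of the B cell receptor, the most abundant. All 8 had a higher level in KO at an unadjusted p under 0.05, as had all 8 T cell markers (summed CPM 13.6 to 26.2 in WT, and 141, 25.1, 180 and 32.99 in KO). *Cxcl13*, a chemokine of lymphoid follicles, had 0 to 0.226 CPM in WT and 11.8, 0.138, 15.6 and 1.33 CPM in KO. Of the other lists, 2 of 6 luminal epithelium markers were higher and 1 was lower, 5 of 7 milk protein genes were lower, and none of the myeloid, myoepithelium, adipocyte, endothelium, fibroblast or skeletal muscle markers passed. Over all genes tested, 10.7% were higher and 10.7% lower at this limit. In whole tissue, more cells of a type and more RNA per cell cannot be told apart.

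None of the 9 members was called at the limits of the study, which ask for an adjusted p below 0.01 with a log2 fold change beyond 1 in either direction, and nor was any of the 17175 genes tested (0%) by edgeR's quasi-likelihood test. The edgeR exact test called 426 genes (2.48%) and no member, and DESeq2 called 568 (3.31%) and 1 member, *Mzb1* (adjusted p = 0.00888). At an unadjusted p under 0.05, 4 of the 9 were higher in KO (*Igj*, *Mzb1*, *Irf4* and *Sdc1*) and none was lower, beside 10.7% of all genes higher and 10.7% lower (1836 and 1838 genes). The median log2 fold change was 0.39 over the 9 members and 0.05 over all genes. All 4 KO libraries lay above all WT libraries for 1 member, *Mzb1*, beside 9.07% of all genes, and below them for none, beside 9.62%. The count of 4 fell to 2 without WT 1, without WT 2 or without KO 2. Without both KO 1 and KO 3 it was 0, beside 5.46% of all genes higher and 7.02% lower.

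**Figure D1:**
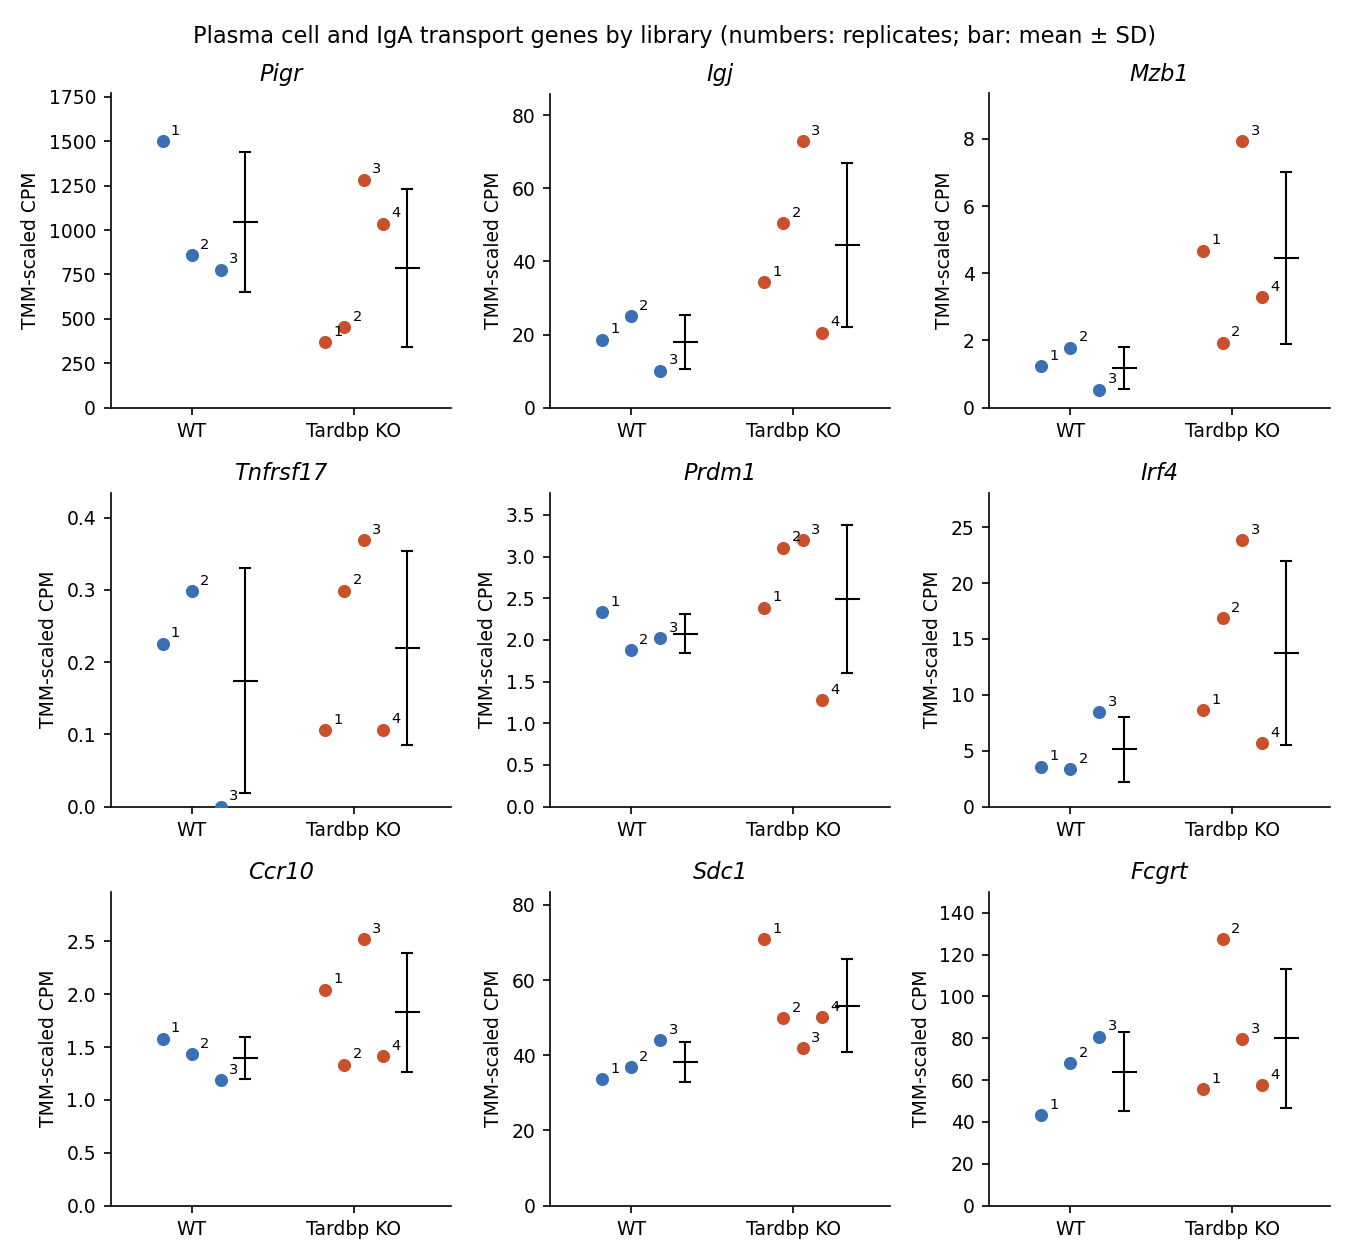
TMM-scaled CPM of the 9 members in each library, with WT in blue, KO in orange, replicate numbers beside the points and bars giving the mean ± SD. KO 2 and KO 3 are the highest libraries for *Igj* and *Irf4*, all 4 KO libraries lie above WT for *Mzb1*, and KO 1 and KO 2 are the lowest for *Pigr*.

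*Pigr* was the most abundant member. It had 1499, 859 and 777 CPM in WT (1045 ± 395, SD, n = 3) and 371, 455, 1284 and 1036 CPM in KO (787 ± 444, SD, n = 4). KO 1 and KO 2 lay below every WT library, while KO 3 and KO 4 lay between WT 1 and WT 2, so the groups overlapped. The log2 fold change was -0.41 (SE 0.453, 95% interval -1.44 to 0.62, adjusted p = 0.65 by edgeR's quasi-likelihood test, exact permutation p = 0.4, where 0.0286 is the smallest p that the 35 splits allow). The interval holds changes in both directions, so a difference of *Pigr* was not detectable with these libraries. With counts scaled by library size only, which moved the median of all genes from 0.05 to 0.42, the value was 0.00, and in lane 4 only it was 0.43, with no test. Leaving out 1 library moved it as far as -0.06 without WT 1 and -0.75 without KO 3. The milk protein genes, made by the same epithelium, lay lower in all KO libraries for 7 of 7, beside 9.62% of all genes tested. *Krt8*, a keratin of luminal cells, was 491 CPM in WT and 718 CPM in KO, all KO above WT, whereas *Elf5*, a transcription factor of luminal cells, was 1057 CPM in WT and 703 CPM in KO, all KO below WT (log2 fold change -0.59, adjusted p = 0.214).

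*Fcgrt* had 43.3, 68.1 and 80.8 CPM in WT and 55.7, 127, 79.6 and 57.7 CPM in KO. Only KO 2 lay outside the WT range. The log2 fold change was 0.32 (SE 0.322, adjusted p = 0.614, edgeR quasi-likelihood). *B2m*, the light chain that pairs with the neonatal Fc receptor, was 1013 CPM in WT and 778 CPM in KO, a log2 difference of -0.38 (adjusted p = 0.336) with overlapping libraries.

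*Igj* had 18.6, 25.0 and 10.1 CPM in WT (17.9 ± 7.47, SD, n = 3) and 34.3, 50.4, 72.9 and 20.6 CPM in KO (44.5 ± 22.5, SD, n = 4). KO 1, 2 and 3 lay above every WT library and KO 4 lay inside the WT range. The log2 fold change was 1.31 (SE 0.441, 95% interval 0.32 to 2.31), with an unadjusted p of 0.0156, an adjusted p of 0.144 by edgeR's quasi-likelihood test and an exact permutation p of 0.0857. *Mzb1*, an endoplasmic reticulum protein that helps antibody chains fold and assemble, had 1.24, 1.79 and 0.535 CPM in WT and 4.67, 1.93, 7.92 and 3.28 CPM in KO. All KO libraries lay above WT, with KO 2 closest to it. Its log2 fold change was 1.91 (SE 0.562, adjusted p = 0.117, edgeR quasi-likelihood, exact permutation p = 0.0571). The part of the lymphocyte genes of KO 1, 3 and 4 in these values was not tested. Without KO 1 and KO 3 the log2 fold change was 0.99 for *Igj* and 1.13 for *Mzb1*.

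Among the transcription factors of the plasma cell programme, *Irf4*, which starts plasma cell differentiation and is also used by activated T cells, had 3.57, 3.34 and 8.47 CPM in WT and 8.65, 16.9, 23.8 and 5.65 CPM in KO. KO 2 and KO 3 were well above WT, KO 1 only just, and KO 4 lay between WT libraries. The log2 fold change was 1.42 (SE 0.536, unadjusted p = 0.0267, adjusted p = 0.177, edgeR quasi-likelihood). *Prdm1*, the gene of Blimp-1, which represses the B cell programme, had 2.33, 1.88 and 2.02 CPM in WT and 2.39, 3.11, 3.19 and 1.28 CPM in KO. The KO libraries spread to both sides of WT, with a log2 fold change of 0.27 (SE 0.353, adjusted p = 0.71).

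Of the surface receptors, *Sdc1*, which encodes syndecan 1 and is made by plasma cells and by epithelium, had 33.6, 36.9 and 44.1 CPM in WT and 70.8, 50.0, 42.0 and 50.1 CPM in KO. KO 1 was highest and KO 3, the library with the most *Igj*, was the lowest of the KO group and inside the WT range. The log2 fold change was 0.48 (SE 0.196, unadjusted p = 0.0378, adjusted p = 0.204, edgeR quasi-likelihood). *Ccr10*, the receptor by which IgA plasma cells follow CCL28 to the gland, had 1.58, 1.43 and 1.19 CPM in WT and 2.04, 1.33, 2.52 and 1.41 CPM in KO. KO 1 and KO 3 were above WT and the other two were inside its range (log2 fold change 0.39, adjusted p = 0.552). *Tnfrsf17*, the survival receptor BCMA, was near the limit of detection, with 6, 10 and 0 counts in WT and 4, 13, 18 and 4 counts in KO (log2 fold change 0.37, SE 0.896, adjusted p = 0.854). At this depth a difference was not detectable.

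**Figure D2:**
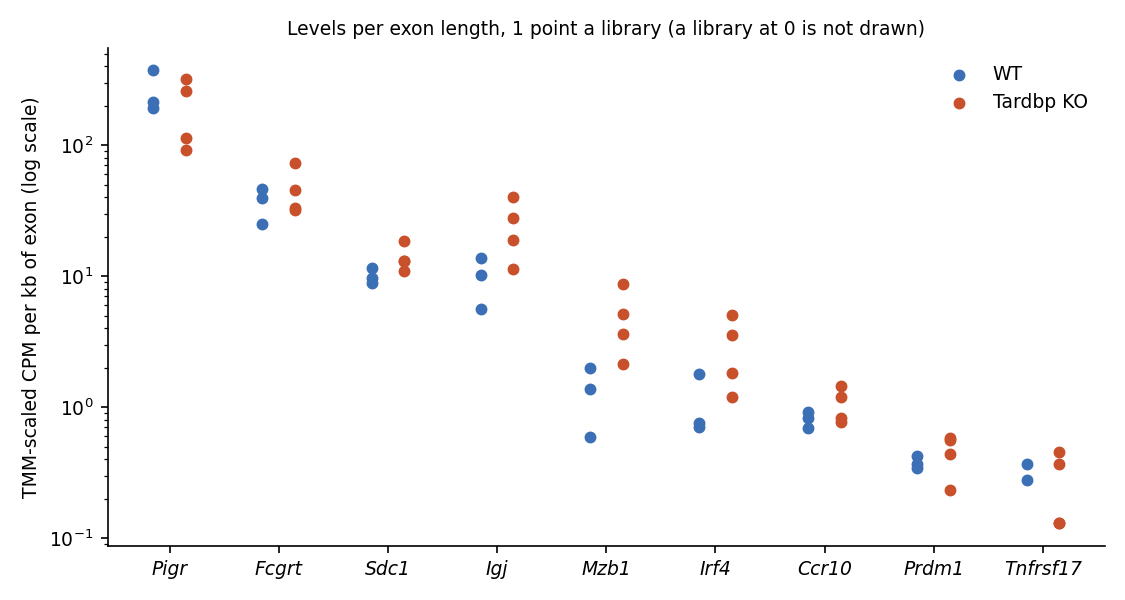
TMM-scaled CPM per kb of exon on a log scale for the 9 members, 1 point a library, WT in blue and KO in orange. *Pigr* lies above every other member in all libraries, and the WT library of *Tnfrsf17* at 0 is not drawn.

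Per kb of exon, which allows levels of different genes to be compared, the mean WT level was 260 CPM for *Pigr*, 36.9 for *Fcgrt*, 10.04 for *Sdc1*, 9.88 for *Igj*, 1.31 for *Mzb1*, 1.09 for *Irf4*, 0.811 for *Ccr10*, 0.378 for *Prdm1* and 0.214 for *Tnfrsf17*. In WT the libraries of *Sdc1* and *Igj* overlapped, as did those of *Mzb1*, *Irf4* and *Ccr10*, and those of *Prdm1* and *Tnfrsf17*, so these neighbours did not differ beyond their spread. In KO the mean of *Igj* was 24.5 CPM per kb and that of *Pigr* 195.

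The amount of *Igj* beside the B cell markers differed between the KO libraries. KO 2 had far lower B cell marker levels than the other KO libraries, though some lay above WT. *Cd79a* was 1.96 CPM in KO 2 and 0.639, 0.834 and 0.713 CPM in WT, *Cd79b* 1.66 against 0.903, 0.953 and 1.04 CPM, and *Blk*, a B cell kinase, 0.368 against 0.0376, 0.0596 and 0.119 CPM, while *Pax5* was at 0. *Igj* in KO 2 also lay above every WT library. KO 4 had 56.0 CPM of B cell markers and *Igj* at the WT level. *Igj* per CPM of B cell markers was 6.51, 8.57 and 2.97 in WT and 9.61 in KO 2, against 0.186, 0.277 and 0.367 in KO 1, 3 and 4. The ratio of KO 2 was close to the highest of WT, and the other KO libraries had ratios below WT.

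**Figure D3:**
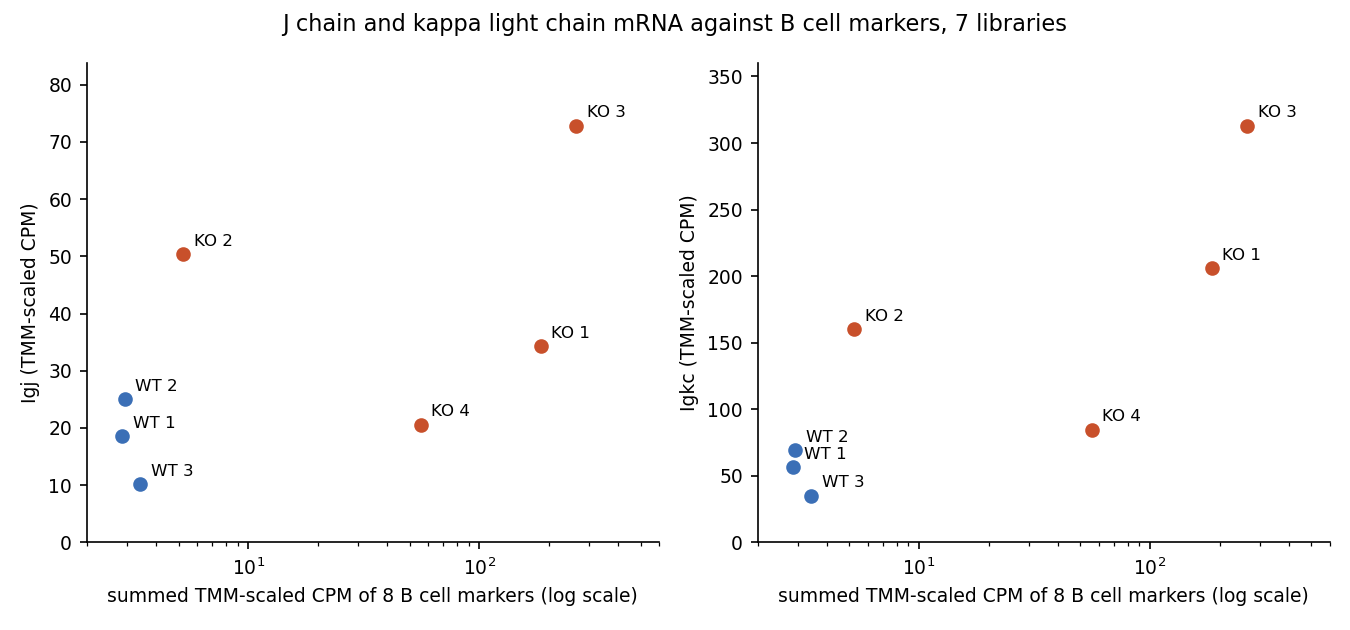
*Igj* and *Igkc* (TMM-scaled CPM) against the summed CPM of 8 B cell markers on a log scale, 1 point a library. KO 2 lies nearer to WT than the other KO libraries on the horizontal axis, at 5.25 CPM against 2.86 to 3.42 CPM in WT, and above WT on the vertical axis, at 50.4 CPM of *Igj* and 160.3 CPM of *Igkc*.

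Antibody chains, the product of plasma cells and also a component of B cells, had the largest median difference of the 6 related lists. Of 11 constant region genes, 6 had a row, and all 6 were higher in KO at an unadjusted p under 0.05, beside 10.7% of all genes. Their median log2 fold change was 2.91. The quasi-likelihood test called none of them, the exact test called 4 and DESeq2 called 5. *Igkc*, the kappa light chain, had 56.4, 69.2 and 35.2 CPM in WT and 206, 160.3, 313 and 84.7 CPM in KO, all KO above WT (log2 fold change 1.83, SE 0.423, adjusted p = 0.0825, edgeR quasi-likelihood). *Iglc3* and *Iglc2*, lambda chains that share sequence and may share reads, had log2 fold changes of 4.88 (adjusted p = 0.0793) and 3.62 (adjusted p = 0.0797). Both rest on few counts in WT. *Iglc3* had 5, 4 and 8 counts in WT and 259, 27, 595 and 76 counts in KO. *Iglc2* had 17, 42 and 12 counts in WT and 413, 102, 961 and 152 counts in KO. Without KO 1 and KO 3 all 6 were still higher at an unadjusted p under 0.05, beside 5.46% of all genes, with a median of 2.23. KO 4 remained in that comparison, where 7 of 8 B cell markers were also higher (median 3.58), and their part in the values of the antibody chains was not tested. *Ighm*, the IgM heavy chain, was 20.2 CPM in KO 2, inside the range of WT, against 124, 162 and 39.5 CPM in KO 1, 3 and 4. *Ighm* per CPM of *Igkc* was 0.126 in KO 2, the lowest of the 7 libraries, and 0.297 to 0.370 in WT. The IgG heavy chains differed among themselves. *Ighg1* was 17.9 CPM in KO 2, close to 15.5 and 16.3 CPM in KO 1 and KO 3, with 7.87 CPM in KO 4 and 0.743 to 5.34 CPM in WT. *Ighg2c* was 6.07 CPM in KO 2, inside the WT range of 1.94 to 11.7 CPM, against 98.5, 47.9 and 54.2 CPM in KO 1, 3 and 4. Rows named *Ighg* and *AI324046* are annotated as constant regions, but the tables used here do not settle which isotype they are, and they were not counted among the 6. *Ighg* had 8.65, 4.71 and 2.32 CPM in WT and 27.3, 12.7, 26.4 and 19.3 CPM in KO, all KO above WT. *AI324046* had 3.72, 0.298 and 0.297 CPM in WT and 6.93, 0.207, 42.6 and 3.23 CPM in KO, with KO 2 lowest and KO 3 highest. Chosen after their values were seen, the kappa variable genes differed in how far 1 of them prevailed. Of 97 rows, the one with the most counts took 22.2% of the kappa variable counts in KO 2, 15.04% and 15.2% in KO 3 and KO 4, 7.88% in KO 1 and 8.37 to 9.62% in WT. It was *Igkv1-110* in KO 2, KO 3 and WT 3, and other rows in the remaining libraries.

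The antibody secretion programme, 14 genes of transcription, folding and export, divided in both directions, with a median log2 fold change of -0.12. In KO, 4 were higher at an unadjusted p under 0.05, and 7 were lower, beside 10.7% of all genes each way. The higher ones were lymphocyte genes: *Pou2af1*, a B cell coactivator (log2 fold change 3.09, adjusted p = 0.0876), *Tnfrsf13b*, a receptor for BAFF and APRIL (1.93), *Cd27* (1.84) and *Slamf7* (1.30). The lower ones included *Derl3*, which serves degradation of misfolded proteins of the endoplasmic reticulum and had 46.9, 17.7 and 56.1 CPM in WT and 6.05, 9.92, 6.33 and 12.8 CPM in KO (log2 fold change -2.20, SE 0.403, adjusted p = 0.0692). *Ell2*, an elongation factor known for the switch to secreted antibody, had 196, 89.3 and 115 CPM in WT and 66.8, 51.2, 41.9 and 47.5 CPM in KO (-1.36, adjusted p = 0.0712). *Txndc5*, a disulfide isomerase, was at -0.81 (adjusted p = 0.0806). For all 7 lower genes every KO library lay below every WT library, beside 9.62% of all genes tested. These 7 had been picked by their unadjusted p, which favours such separation. DESeq2 called 4 genes of the list, *Pou2af1*, *Tnfrsf13b*, *Derl3* and *Ell2*. Genes of folding and export such as *Derl3* and *Txndc5* also serve secretory epithelium, and the part of each cell type was not tested. *Xbp1*, which drives the secretory apparatus in both cell types, was 1181 CPM in WT and 1325 CPM in KO (log2 fold change 0.17, adjusted p = 0.798). Without KO 1 and KO 3, 1 gene of the list was higher and 6 were lower, beside 5.46% and 7.02% of all genes.

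**Figure D4:**
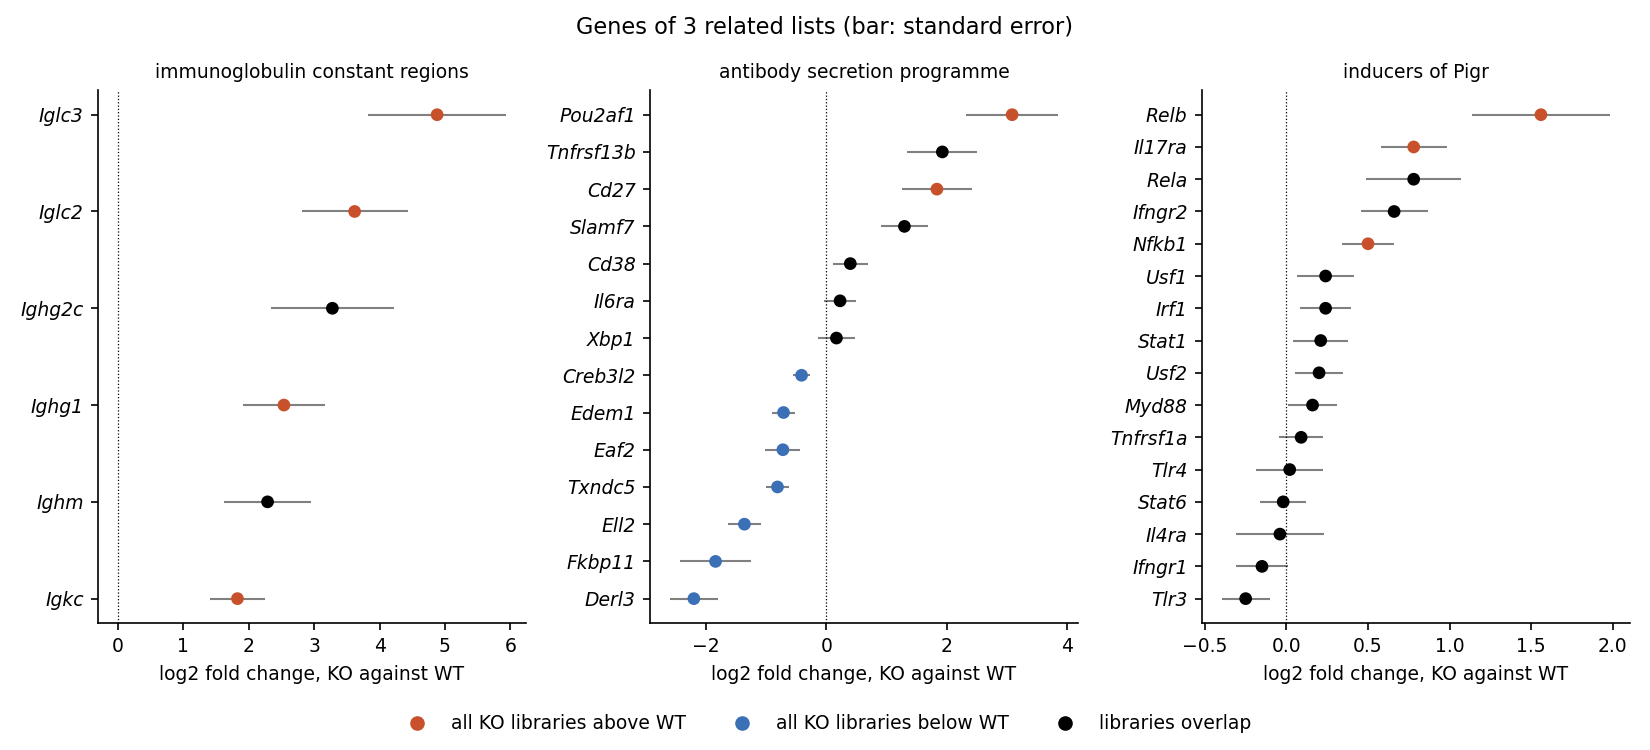
Log2 fold changes (KO against WT, points) with standard errors (bars) for 6 immunoglobulin constant regions, 14 genes of antibody secretion and 16 inducers of *Pigr*. The constant regions all lie to the right of 0, and the secretion genes lie on both sides. For 7 of these every KO library was below WT, as for 9.62% of all genes tested.

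Of the signals that bring plasma cells to the gland and keep them there, 5 of 12 tested were higher in KO at an unadjusted p under 0.05 and 1 was lower. The shares over all genes were 10.7% higher and 10.7% lower. *Itgb7*, an integrin subunit of gut and mammary homing lymphocytes, had a log2 fold change of 2.26 (adjusted p = 0.11), with 5.42 to 6.81 CPM in WT and 44.3, 7.85, 51.3 and 11.1 CPM in KO, the same order among the KO libraries as the summed B cell markers. *Vcam1*, the vascular adhesion molecule that alpha-4 integrins bind, was at 0.94 (adjusted p = 0.167). *Tnfsf13*, which encodes APRIL, the ligand of BCMA, was the lower one, at -0.64 (adjusted p = 0.141). Without KO 1 and KO 3, 1 of the 12 was higher, beside 5.46% of all genes. *Ccl28*, the ligand of *Ccr10*, had no row of its name and was not analysed here.

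For the passage of the receptor through the cell, of 11 transcytosis partners, none was higher and 1 was lower, *Rab5a*, a GTPase of early endosomes (log2 fold change -0.35, adjusted p = 0.205). Over all genes tested, 10.7% were higher and 10.7% lower at the same unadjusted p, so 1 of 11 is near that share. *Rab17* and *Yes1*, a kinase that acts on the receptor's transport, had log2 fold changes of 0.58 and 0.26 (adjusted p = 0.327 and 0.325). Of 16 genes whose pathways are known to induce *Pigr*, 5 were higher and none was lower, beside the same 10.7% each way. *Relb*, an NF-kappaB subunit, had 12.4, 18.4 and 19.1 CPM in WT and 94.3, 25.2, 38.9 and 38.4 CPM in KO (1.56, adjusted p = 0.0992), *Il17ra*, the IL-17 receptor, was at 0.78 (adjusted p = 0.0947) and *Ifngr2*, a chain of the interferon gamma receptor, at 0.66 (adjusted p = 0.128). KO 1, which had the most *Relb*, had the least *Pigr* (371 CPM). KO 2, which had the least *Relb* of the KO libraries, had the next lowest *Pigr* (455 CPM). A relation of *Relb* to *Pigr* was not tested. Without KO 1 and KO 3, 2 of the 16 inducers were higher and none was lower, beside 5.46% and 7.02% of all genes. Of 7 other Fc receptors tested, none was higher and *Trim21*, a cytosolic antibody receptor, was lower, at -0.41 (adjusted p = 0.223). With so few genes, 1 of 7 is again near the share of all genes. *Fcgr2b*, the inhibitory IgG receptor, and *Fcer1g*, the chain that signals for several Fc receptors, had log2 fold changes of 0.73 and 0.51 (adjusted p = 0.294 and 0.312), with overlapping libraries.

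Correlations are a description over 7 libraries, which share genotype, lane and depth as sources of variation. Over the 36 pairs of members, Pearson r of log2(CPM + 1) ran from -0.808 (*Pigr* and *Sdc1*) to 0.882 (*Mzb1* and *Ccr10*). *Igj* had r = 0.797 with *Mzb1*, 0.778 with *Tnfrsf17*, 0.707 with *Ccr10* and -0.169 with *Pigr*. Among 17174 genes *Mzb1* ranked 794 in likeness to *Igj*. The genes most like *Pigr* were *Ipo11* (r = 0.954), *Mdfi* (0.946), *2310047M10Rik* (0.942), *Pdcd7* (0.940) and *Gm8325* (0.931), and no member was among them. Those most like *Igj* were *Gm16734* (r = 0.989), an immunoglobulin J segment, *Tmem67* (0.987), *Gm16711* (0.986), an immunoglobulin V segment, *Soat2* (0.985) and *Runx2* (0.983).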

How the data were processed

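The authors extracted total RNA of mammary gland tissue with Trizol, made libraries with an Illumina TruSeq kit, mapped reads with STAR to NCBIM37 (mm9) and counted them on exons with featureCounts 1.4.6-p5. The submitters' processing notes give STAR 2.5.2a. The deposited values are whole-number counts per gene without normalization. Per the file headers, no strand option was set, so reads of both strands were counted. A further library (1) in that header carries no column and was left out.

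After removal of 37 mitochondrial and 580 ribosomal genes, a gene was tested if 4 or more libraries had 5 or more counts (17175 genes). The genotypes were compared in edgeR 4.0.16 under R 4.3.3 (TMM, quasi-likelihood test, Benjamini-Hochberg adjustment over all genes tested). A 2-sided exact permutation test used log2(CPM + 1). DESeq2 1.42.0, other scalings, filters and tests, a replicate block and libraries left out were alternatives. The fit was also run on simulated data that gave all genes the same dispersion, the spread between libraries. That run cannot show how the fit handles a spread that differs between genes. Tables were made with Python 3.11.15 and pandas 2.3.3.

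Members and gene lists were chosen with earlier results of these data known. Named were all members, the 3 genes with the lowest unadjusted p of each related list where none was called, up to 2 most abundant genes of each marker list, and the 5 genes most correlated with *Pigr* and *Igj*. Other genes named in the text (*B2m*, *Xbp1*, *Ighm*, *Ighg1*, *Pax5*, *Pou2af1*, *Tnfrsf13b*, *Cd27*, *Slamf7*, *Igkv1-110*, *Cd79b*, *Blk*, *Ighg2c*, *Ighg* and *AI324046*) were chosen after their values were seen. The values of 1 marker gene are not reported here by themselves. Intervals and counts of 0 cover the fitted spread or counting error only.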

Additional observations from a re-analysis of the deposited data

How the results depend on the processing

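No member changed sides of the study's limits under the alternatives run, except *Mzb1*, which DESeq2 called. Log2 fold changes stayed above 0 under all alternatives for *Igj* (0.90 to 1.73), *Mzb1* (1.13 to 2.34), *Irf4* (1.02 to 2.14), *Sdc1* (0.31 to 0.83), *Prdm1* (0.08 to 0.67) and *Fcgrt* (0.01 to 0.69). *Pigr* was 0.00 with library size only, 0.43 in lane 4 and -0.75 to -0.06 with 1 library left out, *Tnfrsf17* was -0.29 in lane 4 and -0.23 to 1.06 with 1 library left out, and *Ccr10* was -0.02 without KO 1 and KO 3. *Tardbp* was -0.01 with DESeq2's size factors and with DESeq2, -0.02 without the 10 most counted genes, -0.09 to 0.16 with 1 library left out, and 0.38 with library size only (unadjusted p = 0.0349, adjusted p = 0.122), a scaling that set the median of all genes at 0.42. The count of all genes called was 426 with the exact test, 568 with DESeq2, 1 with no filter on low counts and 1 at an adjusted p under 0.05 with no limit on the fold change. The count of members called was 1 with DESeq2. The count of members higher at an unadjusted p under 0.05 was 2 to 3 with 1 library left out and 0 without KO 1 and KO 3. The cause of these shifts was not tested. The list counts without KO 1 and KO 3 were chosen after seeing the data.

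The replicate numbers were not treated as pairs in the main fit. Deviations of same-numbered libraries from their group means had r = 0.437, 0.0744 and -0.0836. WT 1 alone of the WT libraries correlated best with its own number. So few values cannot exclude a pairing. With a replicate block, 3 members were higher at an unadjusted p under 0.05, no gene was called, *Pigr* was at -0.75, and the log2 fold change of *Tardbp* was -0.04.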
